A study of Mus musculus with 6 samples.

Results

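The vesicle trafficking and exocytosis genes described here are the genes whose names begin with RAB, SYT, SYTL, STX, STXBP, VAMP, SNAP, RIMS or CPLX followed by a digit, or are UNC13A to UNC13D. The table of read counts lists 107 of them among 13702 genes. Of these, 52 reached at least 20 counts summed over the 6 libraries and could be compared, among 5641 genes that did so. The name rule also takes in regulators and partners that are not themselves Rab or SNARE proteins, such as RAB3GAP1, RAB3IP and the RAB11FIP genes. RNA was sequenced from pancreatic islets of mice aged 12 weeks. The β-PCKO mice, labelled KO, carry a β-cell deletion of pyruvate carboxylase, which converts pyruvate to oxaloacetate in mitochondria, and the WT mice are their littermates. There were 3 libraries per genotype, and the comparison asks which genes differ without the enzyme. The sources used here do not give the driver of the deletion, any treatment, or whether each library came from its own animal. The p-values below therefore speak of the spread between the libraries and no more, and some of that spread may be technical.

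Membrane traffic moves cargo between compartments in small vesicles. Rab proteins are small GTPases that mark each compartment and, when bound to GTP, recruit motors and tethers. Fusion is driven by SNARE proteins: a vesicle SNARE of the VAMP family zippers with syntaxins and SNAP25-like proteins on the target membrane. Munc18-like STXBP proteins, Munc13 (UNC13), RIM (RIMS) and complexins (CPLX) organise docking and priming, and synaptotagmins (SYT) are calcium sensors or modulators. In β-cells this machinery delivers insulin granules to the plasma membrane and releases insulin when calcium rises.

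The members STXBP5L and SYT11 were the ones that differed between the genotypes past the threshold, and the starts of the corresponding mouse genes are shown for that reason. The sequences are from RefSeq (GRCm38.p6) and run from 250 bases before to 50 bases after the annotated start, on the gene's strand, with the GC box letters GGGCGG or their reverse complement CCGCCC in capitals. The Stxbp5l stretch is chr16:37384909-37385208 and the Syt11 stretch is chr3:88772550-88772849, both on the minus strand.
Stxbp5l: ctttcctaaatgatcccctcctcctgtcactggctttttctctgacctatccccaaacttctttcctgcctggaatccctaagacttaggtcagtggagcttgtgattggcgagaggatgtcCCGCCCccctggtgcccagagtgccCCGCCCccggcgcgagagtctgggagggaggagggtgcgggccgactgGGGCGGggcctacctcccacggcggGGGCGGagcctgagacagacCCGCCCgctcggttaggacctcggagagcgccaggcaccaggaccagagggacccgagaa
Syt11: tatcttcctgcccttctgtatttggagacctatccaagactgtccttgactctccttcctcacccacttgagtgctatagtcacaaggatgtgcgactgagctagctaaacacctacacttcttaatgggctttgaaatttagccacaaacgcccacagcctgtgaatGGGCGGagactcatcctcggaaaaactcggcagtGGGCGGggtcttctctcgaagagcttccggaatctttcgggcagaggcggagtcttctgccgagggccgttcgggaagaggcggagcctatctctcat
The Stxbp5l stretch holds 5 GC boxes and the Syt11 stretch holds 2. Searched on both strands, GGGCGG was found in 35.7% of all 32851 RefSeq mouse promoters of this length. It was in 71.7% of the 46 promoters of compared members, so a GC box is a common feature of these genes. No share was taken for other genes that met the count minimum, so the difference was not shown to be particular to vesicle genes. Neither stretch holds the cyclic AMP response element TGACGTCA, which was in 1.79% of all promoters, or TATAAA, which was in 13.6%. A promoter entry was matched for 40 of the 52 compared members.

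The libraries differed in ways that touch every result below. Total counts ran from 35906 in WT replicate 1 over 135441 in WT replicate 3 to 377876 in WT replicate 2, with 224898 to 225561 in KO. The table uses human-style identifiers and capital symbols although the labels give mouse, and a mouse gene whose reads did not reach such a name has no usable value. For the targeted gene PC, 4 reads in WT replicate 2 were the only ones in any library, too few to check the genotype labels. Over the compared members the KO libraries were close to each other, with a chi-square per degree of freedom of 1.82 to 2.42 for KO pairs against 9.69 to 30.2 for WT pairs. Islet endocrine markers, of which 10 of 20 were listed, made up 0.348%, 0.0196% and 0.0620% of WT replicates 1, 2 and 3, and 0.352% to 0.397% of each KO library. The defining islet genes INS, GCG, SST, IAPP and PDX1 have no value here, so the labelled tissue could be checked only by NEUROD1, MAFA, PAX6 and the like. Squamous epithelium markers, all 18 listed, made up 20.9% of WT replicate 2, against 0.0582% to 0.129% of the other 5 libraries. In bulk RNA, fewer cells of a type and less RNA per cell cannot be told apart.

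Together the 107 vesicle genes took 2.06% of counts in WT replicate 1 (exact Clopper-Pearson 95% interval, 1.91% to 2.21%), 0.595% in WT replicate 2 (0.571% to 0.620%) and 0.911% in WT replicate 3 (0.861% to 0.963%). In the KO libraries they took 1.64%, 1.68% and 1.63%. The KO shares therefore lay inside the WT range, above WT replicates 2 and 3 and below WT replicate 1. The order WT replicate 1, then 3, then 2 is also the order of the islet marker shares in the WT libraries, and the order of rising total counts. Squamous markers were highest in the library with the lowest vesicle share. The part of either marker set, or of depth, in the vesicle gene values was not tested. RAB1A, which directs traffic from the endoplasmic reticulum to the Golgi, supplied 30.8%, 7.12% and 15.5% of the vesicle gene reads of WT replicates 1, 2 and 3, against 30.4% to 33.6% of those of KO.

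**Figure D1:**
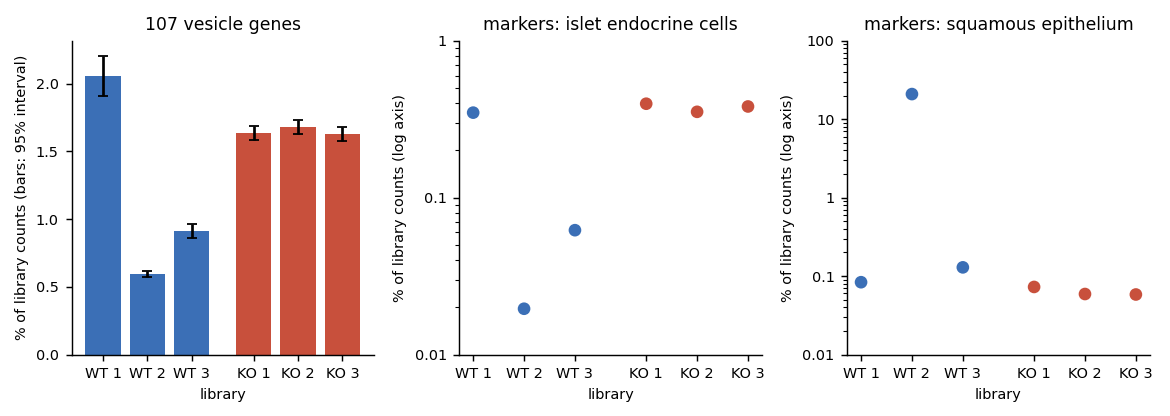
Share of each library's counts in the 107 vesicle genes (left, bars with exact 95% intervals) and in islet endocrine and squamous epithelium markers (middle and right, log axes), for 3 WT (blue) and 3 KO (red) libraries. WT replicate 1 stands at 2.06% in vesicle genes and WT replicate 2 at 0.595%, with the KO libraries at 1.63% to 1.68%. WT replicate 2 stands apart at 20.9% in squamous markers.

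Each gene was compared between KO and WT with edgeR's quasi-likelihood test on TMM-scaled counts, a scaling that adjusts library sizes for composition, with Benjamini-Hochberg adjustment over all 5641 genes and a threshold of 0.05. STXBP5L and SYT11 were higher in KO, 2 of 52 members, and no member was lower. Over all genes 3.08% were called, 3.01% as higher and 0.0709% as lower, so the members' share of 3.85% is near the background. The log2 fold change, KO minus WT, was positive in 23 members and negative in 29. Its median was -0.49 over members and -0.34 over all genes. At an unadjusted p under 0.05, 11 members were higher (21.2%) where 14.9% of all genes were, and 3 were lower (5.77%) where 8.72% were. In 15 members every KO library lay above every WT library, against 22.3% of all genes, and in 1 member, RAB1B, every KO library lay below, against 4.61%. On plain library totals these counts were 11 members above, beside 12.7% of all genes, and 3 below, beside 10%. Standard errors of the members' log2 fold changes ran from 0.56 to 2.39, a spread within which changes of several fold need not pass.

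**Figure D2:**
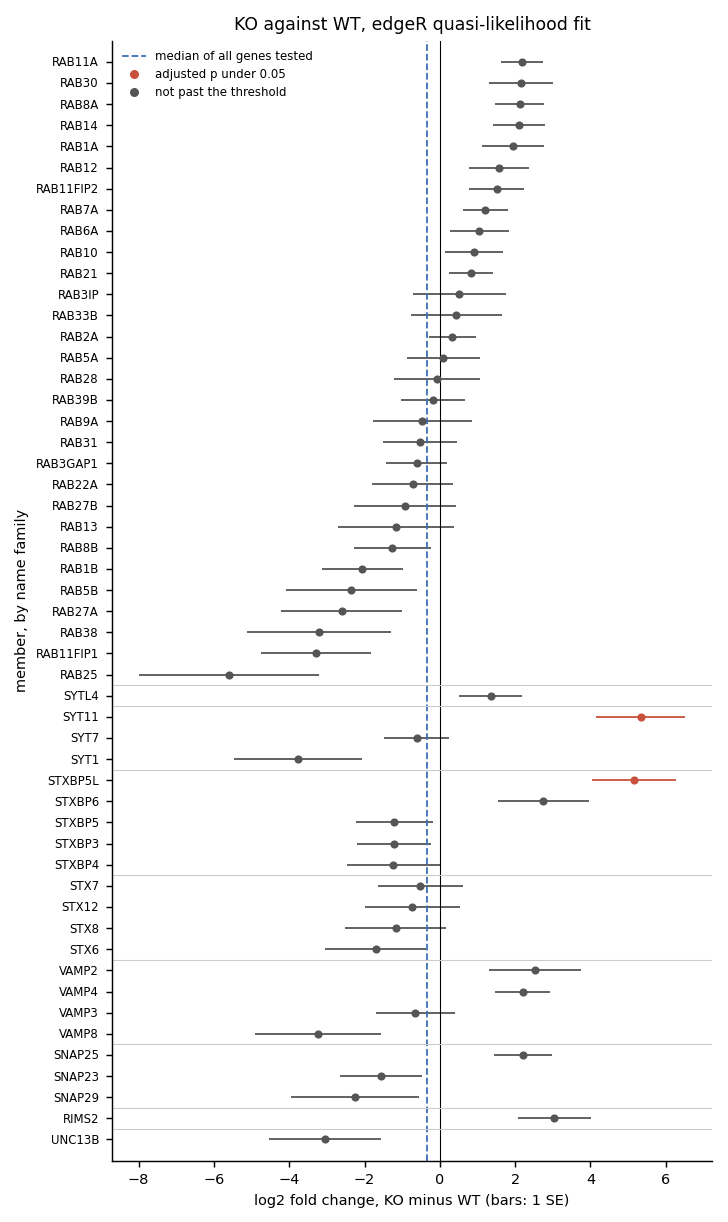
Log2 fold change, KO minus WT, of the 52 compared members by name family, with bars of 1 standard error; red marks adjusted p under 0.05 and the dashed line is the median of all genes tested (-0.34). STXBP5L (5.16) and SYT11 (5.33) are the red points on the right. The value of RAB25, with 0 counts in KO, is a fitted value that depends on the model's prior count.

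STXBP5L encodes tomosyn-2, a syntaxin-binding relative of tomosyn that in mouse β-cells restrains insulin granule fusion. WT replicates 1, 2 and 3 held 0, 0 and 4 of its reads, the KO replicates 52, 39 and 52. As CPM, counts scaled to a fixed library size after TMM, these are 0, 0 and 19.6 against 309, 222 and 306. The groups did not overlap, and WT replicates 1 and 2 had no read. The mean rose from 6.54 ± 11.3 CPM (SD, n = 3) to 279 ± 49.2 CPM (SD, n = 3), a log2 fold change of 5.16 ± 1.13 (SE, edgeR adjusted p = 0.0348). The ratio of summed, scaled counts was 43.7, with a counting interval of 16.7 to 162. The gene reached the minimum of 20 counts through its KO reads alone. The direction was the same under all 17 alternative settings, but with groups that did not overlap it had little room to turn. The call was kept under 11 of them. It was lost under library totals (adjusted p = 0.0727) and under DESeq2 size factors (0.109), while the change relative to the median of all genes was 5.49 under TMM, 5.39 under library totals and 5.51 under DESeq2 size factors.

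SYT11 encodes a synaptotagmin that does not bind calcium and has been linked to vesicle recycling. It had 2, 1 and 0 counts in WT and 61, 30 and 56 in KO. These are 36.1, 2.71 and 0 CPM against 362, 171 and 329 CPM, again with no overlap, although KO replicate 2 was well below the other KO libraries. The mean rose from 12.9 ± 20.1 CPM to 287 ± 102 CPM (SD, n = 3 each), a log2 fold change of 5.33 ± 1.18 (SE, edgeR adjusted p = 0.0348). With only 3 reads in all of WT, the ratio of summed, scaled counts was 59.9 with a counting interval of 20.1 to 294. Like STXBP5L, SYT11 reached the minimum of 20 counts through its KO reads alone. The 2 reads of the shallow WT replicate 1 weighed on this gene: against that library alone the log2 fold change was 1.98 (adjusted p = 0.152), and without it 6.98 (adjusted p = 0.00508). The direction, which again had little room to turn, held under all 17 alternatives and the call under 8.

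With a KO library left out, neither gene was called, while the size of the difference stayed close to the full fit. Without KO replicate 1, 2 or 3 the log2 fold change was 5.06, 5.28 and 5.06 for STXBP5L (edgeR adjusted p = 0.154 to 0.204) and 4.98, 5.47 and 5.07 for SYT11 (adjusted p = 0.154 to 0.226). Only 2, 5 and 14 genes of all those tested were called in these smaller fits. Some markers of several cell types, not the lists as wholes, were also called higher in KO. They were 2 of 6 compared islet markers, 1 of 3 of neurons, 1 of 2 of pituitary cells and 1 of 3 of skeletal muscle. The islet transcription factor NEUROD1 had a log2 fold change of 3.33 (edgeR adjusted p = 0.0318). NEFM, a neurofilament gene of neurons, had 0 counts in each WT library and 51, 47 and 45 in KO (adjusted p = 0.0118). GH1, the pituitary growth hormone gene, had 7, 6 and 5 counts in WT and 7285, 7123 and 7132 in KO (adjusted p = 0.00601), and MYH4, a muscle myosin gene, had 0, 1 and 0 in WT and 112, 94 and 118 in KO (adjusted p = 0.00482). Summed over the markers listed, neurons (5 of 13) made up 0.0140% to 0.156% of WT and 0.126% to 0.136% of KO libraries, pituitary cells (2 of 9) 0.00369% to 0.0270% and 3.165% to 3.23%, and skeletal muscle (5 of 8) 0% to 0.00664% and 0.0453% to 0.0578%. The pituitary sum in KO was GH1 alone, as PITX1 had 0, 96 and 0 counts in WT and 0 in each KO library. MYH4 supplied most of the muscle sum in KO, where TTN had 3, 4 and 4 counts and NEB 9, 4 and 8. Log2 fold changes were -0.08 for TTN and 2.09 for NEB, and 0.39 for MAP2 and 2.21 for ELAVL4 among the neuron genes. None of these 4 was called. The pituitary genes PRL and POMC and the muscle genes ACTA1 and CKM have no value here. The part of islet, neuron, pituitary or muscle RNA in the difference in STXBP5L and SYT11 was not tested.

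**Figure D3:**
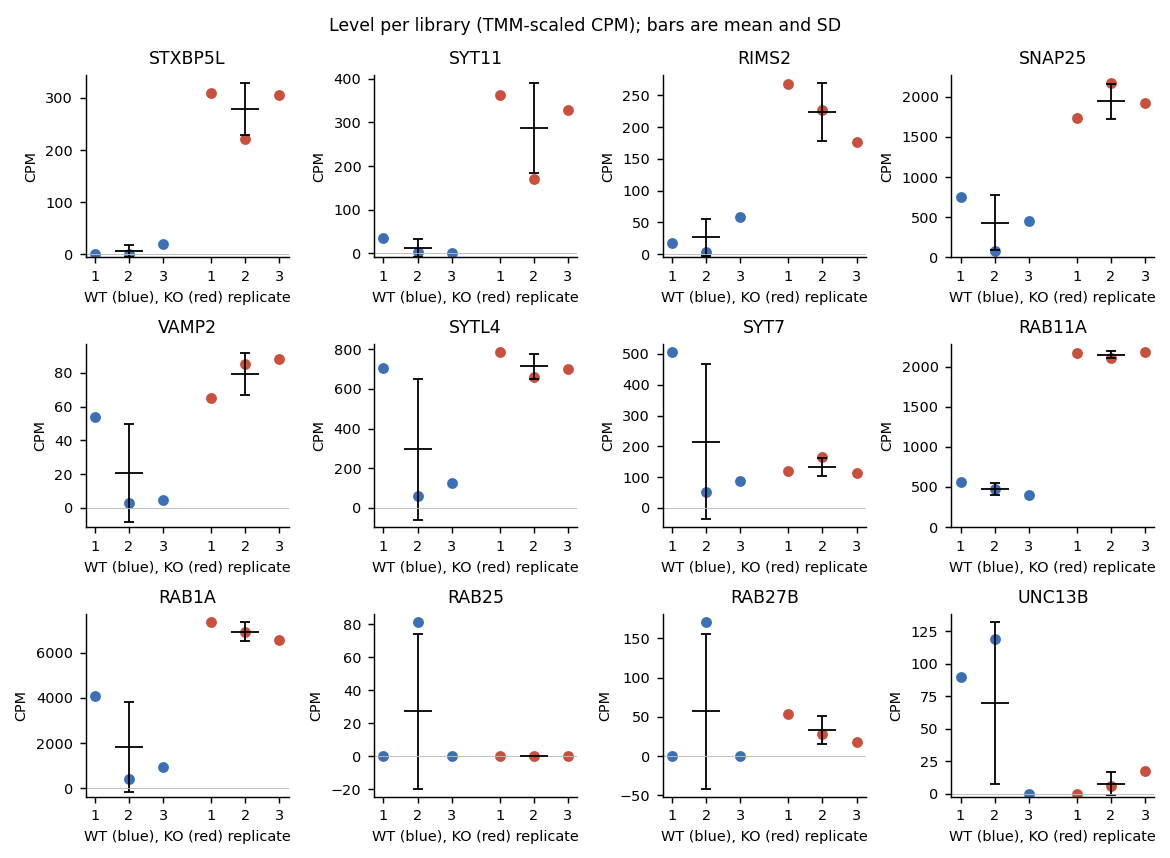
Level of 12 members in each library (TMM-scaled CPM, linear axes starting at or below 0) for WT (blue) and KO (red) replicates, with the mean and SD of each group in black. STXBP5L and SYT11 sit near 0 in WT and at 171 to 362 CPM in KO. WT replicate 1 lies near the KO libraries for SYTL4 and above them for SYT7, and RAB25 has reads in WT replicate 2 alone.

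Among the core fusion SNAREs, SNAP25, the plasma membrane SNARE that pairs with syntaxin in insulin exocytosis, had 758, 76.0 and 456 CPM in WT and 1728, 2169 and 1922 CPM in KO. Every KO library was above every WT library, but the WT libraries spanned a wide range and the log2 fold change of 2.20 ± 0.77 (SE) did not pass (edgeR adjusted p = 0.122). VAMP2, the SNARE carried by the granule, had 3, 1 and 1 counts in WT and 11, 15 and 15 in KO, a log2 fold change of 2.53 ± 1.21 (SE) and an adjusted p of 0.229. VAMP2 reached the count minimum through its KO reads alone. Its KO values of 65.3 to 88.2 CPM were only just above WT replicate 1 at 54.1 CPM, and by share of library counts WT replicate 1 was the highest library. VAMP4, a Golgi and endosome SNARE, had 54.1, 59.7 and 24.5 CPM in WT and 184, 268 and 182 CPM in KO without overlap (2.20 ± 0.74, adjusted p = 0.111). VAMP3, the endosomal relative of VAMP2, had 0, 84.1 and 49.0 CPM in WT and 29.4 to 34.2 CPM in KO, inside the WT range. VAMP8, a SNARE of endosomes and secretory granules, was at 0, 14 and 5 counts in WT and 0, 0 and 1 in KO. The wider-expressed SNAP25 relatives had low counts: SNAP23 had 1, 14 and 23 in WT and 3, 1 and 6 in KO, and SNAP29 had 0, 18 and 1 in WT and 0, 0 and 2 in KO.

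None of the 4 compared syntaxins was called. They are the endosomal and Golgi syntaxins STX6, STX7, STX8 and STX12, while STX1A, the syntaxin of insulin granule fusion, has no value here. All 4 had negative log2 fold changes, from -0.52 to -1.71, but only 42.5% of all genes had positive ones. STX6, STX7 and STX12 reached the minimum of 20 counts through their WT reads alone, which favours a negative sign. STX12 had 0, 39 and 7 counts in WT and 8, 8 and 0 in KO, and STX7 had 1, 26 and 1 in WT and 4 in each KO library. STX6 had 0, 15 and 10 counts in WT and 3, 0 and 2 in KO. For STX7 and STX12 most WT counts came from WT replicate 2 (92.9% and 84.8%), and the sign turned for STX12 without that library (0.06) and for STX7 under limma-voom (0.09).

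None of the other 4 compared syntaxin-binding proteins passed the test. STXBP5, which encodes tomosyn itself, had 2, 42 and 4 counts in WT and 5, 6 and 2 in KO, a log2 fold change of -1.21 ± 1.02 (SE, edgeR adjusted p = 0.497). STXBP3, a Munc18 form used outside neurons, had 18.0, 67.8 and 98.0 CPM in WT and 47.5, 11.4 and 23.5 CPM in KO, and STXBP4 was similarly low, with at most 10 counts in any library. STXBP6, also called amisyn, had 0, 1 and 3 counts in WT and 10, 6 and 9 in KO, without overlap, and did not pass (2.75 ± 1.21, adjusted p = 0.195).

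Among priming factors, RIMS2, a scaffold that binds RAB3 and RAB27 at release sites in β-cells, had 18.0, 2.71 and 58.8 CPM in WT and 267, 228 and 176 CPM in KO. The groups did not overlap, by TMM scaling or by library totals, and KO was higher by 3.04 ± 0.97 (log2, SE; edgeR adjusted p = 0.0984). It passed without WT replicate 3 (4.97, adjusted p = 0.0182) and under limma-voom (3.75, adjusted p = 0.0241). UNC13B, which encodes a Munc13 priming factor, had 5, 44 and 0 counts in WT and 0, 1 and 3 in KO, with a log2 fold change of -3.05 ± 1.50 (SE) and an adjusted p of 0.239. WT replicate 2 held 89.8% of its WT counts. WT replicate 3 had none, so WT and KO overlapped. RIMS1, RIMS3, UNC13C and UNC13D had 2 to 6 counts over all libraries.

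SYT7, a calcium sensor of high affinity that acts in insulin release, did not pass the test. It had 505, 51.5 and 88.2 CPM in WT and 119, 165 and 112 CPM in KO, a log2 fold change of -0.62 ± 0.87 (SE, edgeR adjusted p = 0.700). Against WT replicate 1 it was lower in KO and against WT replicate 2 higher, and its sign turned without WT replicate 1 (0.92). SYT1, the fast calcium sensor of synapses, had 0, 5 and 17 counts in WT and 1, 0 and 0 in KO, a difference that did not pass (-3.77 ± 1.70, adjusted p = 0.203). SYT9 had 1 count in all.

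The granule tether SYTL4, also called granuphilin, docks insulin granules at the plasma membrane through RAB27A. It had 703, 57.0 and 123 CPM in WT and 784, 660 and 699 CPM in KO, so that WT replicate 1 stood among the KO libraries and the other WT libraries well below. The log2 fold change was 1.35 ± 0.83 (SE, edgeR adjusted p = 0.345). Without WT replicate 1 it was 3.00 (adjusted p = 0.00784), and against WT replicate 1 alone it was -0.97 (adjusted p = 0.0225). RAB27A had 0, 9 and 10 counts in WT and 0, 0 and 2 in KO. RAB27B had 63 reads in WT replicate 2, 3 to 9 in each KO library and 0 elsewhere. Of the RAB3 genes, which mark secretory vesicles, RAB3B had no WT count and 2, 4 and 3 in KO. For RAB3D, 17 of 19 reads came from WT replicate 2. RAB3A and RAB3C have no value here. SYTL2 had 5 counts in WT, all in replicate 2, and 12 in KO, and SYTL1 had 12 counts, all in WT replicate 2.

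RAB11A, a GTPase of recycling endosomes, came closest to the threshold among the Rab genes. Its values were 559, 469 and 402 CPM in WT and 2174, 2107 and 2181 CPM in KO. Here, unlike most members, the WT libraries were close to each other, and all KO libraries were higher by library totals too. The mean was 477 ± 78.9 CPM in WT and 2154 ± 40.9 CPM in KO (SD, n = 3 each), with a log2 fold change of 2.18 ± 0.56 (SE, edgeR adjusted p = 0.0587). It passed under DESeq2 (1.46, adjusted p = 0.0497) and limma-voom (2.21, adjusted p = 0.0121) and did not pass with library totals (1.36, adjusted p = 0.222). Relative to the median of all genes the difference was 2.51 under TMM and 2.42 under library totals.

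Several other Rab members were singled out after their values were seen, because their KO libraries were all above their WT libraries. RAB8A, which directs traffic to the plasma membrane, had 36.1, 111 and 113 CPM in WT and 529, 353 and 312 CPM in KO (2.12 ± 0.66, edgeR adjusted p = 0.0909). RAB14, of the Golgi and endosomes, had 920, 195 and 328 CPM in WT and 1930.2, 2078 and 2087 CPM in KO (2.11 ± 0.68, adjusted p = 0.102). RAB30, a Golgi Rab, had 0, 25 and 12 counts in WT and 37, 44 and 29 in KO (2.15 ± 0.85, adjusted p = 0.162). None of these 3 passed. The RAB11 effector RAB11FIP2 had 35.3 to 78.4 CPM in WT and 154 to 188 CPM in KO (adjusted p = 0.229), while for RAB11FIP1 WT replicate 2 alone held 99 reads, WT replicate 3 held 3, and KO held 3, 0 and 2 (-3.29 ± 1.47, adjusted p = 0.200).

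RAB1A had 227, 160 and 191 counts in WT and 1238, 1212 and 1115 in KO, the most counts of any member. On the TMM scale these were 4094, 434 and 936 CPM against 7353, 6900 and 6554 CPM, with no overlap. By share of library counts WT replicate 1 was above every KO library. The log2 fold change was 1.94 ± 0.82 (SE, edgeR adjusted p = 0.183); it turned to -0.23 against WT replicate 1 alone. RAB6A, which acts in traffic within and from the Golgi, showed the same kind of spread, with 2182, 212 and 490 CPM in WT and 1942 to 1981 CPM in KO, a log2 fold change of 1.05 ± 0.78 and an adjusted p of 0.438. RAB2A, of the endoplasmic reticulum and Golgi interface, had 685, 187 and 323 CPM in WT and 439, 444 and 588 CPM in KO, inside the WT range. RAB1B, the close relative of RAB1A, was the member with every KO library below every WT library: 36.1, 62.4 and 49.0 CPM against 5.94, 22.8 and 5.88 CPM (-2.07 ± 1.07, adjusted p = 0.265). It was called lower under edgeR's own low-count filter (-3.02, adjusted p = 0.0365). Reads from closely similar genes such as RAB1A and RAB1B, or RAB6A and RAB6C, could be split between names, and the sources used here do not give the way reads were assigned.

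The endosomal Rab genes had no member past the threshold. RAB7A, of late endosomes, had 541, 326 and 191 CPM in WT and 695, 752 and 952 CPM in KO (1.20 ± 0.60, edgeR adjusted p = 0.244), above WT replicate 1 on the TMM scale and below it by share of counts. RAB21 had 174 to 415 CPM in WT and 404 to 507 CPM in KO, and the groups overlapped. RAB5A, of early endosomes, had 0, 86.8 and 83.3 CPM in WT and 56.9 to 71.3 CPM in KO, and RAB22A had 0, 155 and 29.4 CPM in WT and 29.7 to 47.0 CPM in KO, so neither separated the genotypes. The other 11 compared members, RAB3GAP1, RAB3IP, RAB8B, RAB9A, RAB12, RAB13, RAB28, RAB31, RAB33B, RAB39B and RAB5B, had log2 fold changes from -2.35 (RAB5B) to 1.57 (RAB12), and 0 passed. RAB39B, a Rab gene known from neurons, had 1046, 57.0 and 245 CPM in WT and 475, 364 and 312 CPM in KO, with WT replicate 1 highest.

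**Figure D4:**
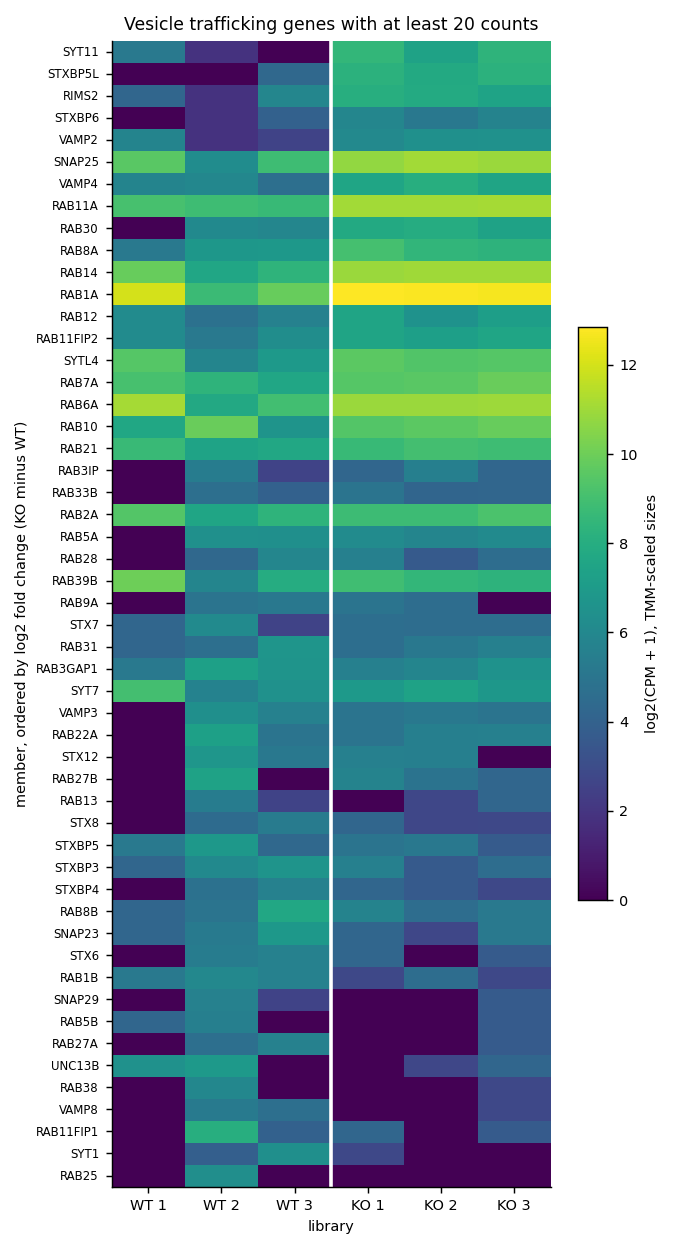
Level of the 52 compared members in each library, as log2(CPM + 1) on TMM-scaled sizes, ordered by log2 fold change (KO minus WT), with the white line between WT and KO. The KO columns look alike (Spearman correlation 0.90 to 0.95 between them), WT replicate 1 has 23 members at 0 counts, and WT replicate 2 holds the reads of RAB25 at the foot.

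A group of members had most of its WT reads in WT replicate 2. In 28 of the 52 members (53.8%) that library held more than 50% of the WT counts, against 65.6% of all genes tested; it is also the deepest WT library. RAB25, a Rab of epithelial cells, had 30 counts there and 0 in every other library. Against 3 counts over the KO group it was at least 8.19-fold lower in KO, and the test did not pass (edgeR adjusted p = 0.195). RAB38, which serves lysosome-related organelles, had 22 counts in WT replicate 2 and 1 count elsewhere, in KO replicate 3. RAB10, used in transport to the plasma membrane, had 198, 963 and 98.0 CPM in WT and 677, 780 and 935 CPM in KO, so the genotypes overlapped through that library alone. All 18 squamous markers had reads in that library, at 20.9% of its counts, and the part of squamous epithelium in the values of RAB25, RAB38, RAB27B and RAB11FIP1 was not tested. These were singled out after their values were seen.

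Because the WT libraries were so unlike, KO was also set against each of them by share of library counts, a scale that no other gene's composition adjusts. The mean KO share was above WT replicate 1 in 32 of the 52 members (61.5%, against 67.8% of all genes), above WT replicate 2 in 23 (44.2%, against 38.2%) and above WT replicate 3 in 25 (48.1%, against 34.8%). WT replicate 1 had 0 counts in 23 members, and for a member at 0 there the KO share cannot be lower. In the 26 members with reads in every WT library, the KO share was above all WT libraries in 7 (26.9%, against 18.8% of the 2589 genes that met the same condition): RIMS2, RAB8A, VAMP4, RAB11A, SNAP25, RAB11FIP2 and RAB14. In 9 of the 26 (34.6%, against 25.8% of those genes), WT replicate 1 had the highest share of all libraries. Across the 52 members the Spearman correlation of counts with the KO libraries was 0.69 to 0.76 for WT replicate 1, 0.62 to 0.66 for WT replicate 3 and 0.33 to 0.39 for WT replicate 2. These are correlations across genes, which share library and depth.

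**Figure D5:**
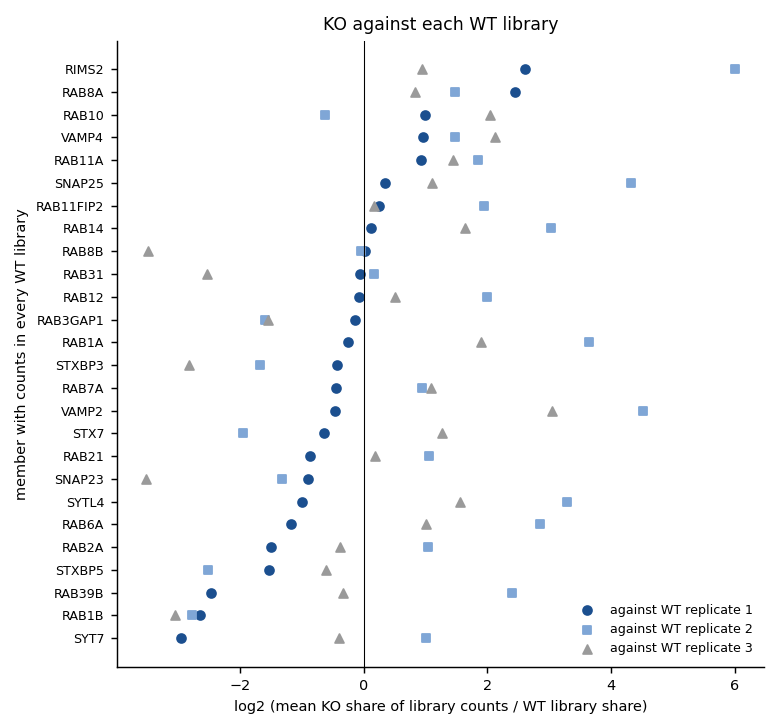
Log2 ratio of the mean KO share of library counts to the share in each WT library, for the 26 members with reads in every WT library. RIMS2, RAB8A, VAMP4, RAB11A, SNAP25, RAB11FIP2 and RAB14 lie to the right of 0 against all 3 WT libraries. SYT7, RAB39B, RAB2A, RAB6A and SYTL4 lie left of 0 against WT replicate 1 and right of it against WT replicate 2.

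Which members were called turned on the WT libraries kept. Without WT replicate 1, 14 of 51 members were called, all higher, where 14.5% of all genes were called higher. They were RAB1A, RAB6A, RAB7A, RAB8A, RAB11A, RAB14, RAB21, RAB30, SNAP25, VAMP2, VAMP4, SYTL4, STXBP5L and SYT11. Without WT replicate 2, STXBP5L alone of 32 members was called, with a background of 3.6% higher, and SYT11 had an adjusted p of 0.0658. Without WT replicate 3, RIMS2, STXBP5L and SYT11 were higher of 46, with 4.13% of genes higher, and RAB11FIP1 and UNC13B were lower, with 5.25% lower. Against WT replicate 1 alone, RAB11A, RAB30 and STXBP5L were higher of 26, with 11.7% of genes higher, and RAB2A, RAB6A, RAB39B, SYT7 and SYTL4 were lower, with 8.23% lower. That fit assumes that the lone WT library varies like the KO libraries. SYTL4 and RAB6A thus passed as higher without WT replicate 1 and had negative log2 fold changes against it alone.

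Under filterByExpr, DESeq2 and limma-voom, 3 to 10 members were called. With edgeR's filterByExpr in place of the 20-count minimum, STXBP5L and SYT11 were higher and RAB1B lower of 24 members, beside 5.04% of genes higher and 3.01% lower. DESeq2 called RAB11A, STXBP5L and SYT11, all higher, beside 3.19% of genes. Under limma-voom 10 members were higher, beside 11.8% of genes: RAB1A, RAB8A, RAB11A, RAB14, RIMS2, SNAP25, STXBP5L, SYT11, SYTL4 and VAMP2. The median log2 fold change over all genes was -0.34 under TMM, -1.04 under DESeq2 size factors and -1.05 under library totals, and that over members was -0.49, -1.19 and -1.18. The sign of the members' median turned under limma-voom (0.22), under filterByExpr (0.63) and with replicate number as a block (0.08). It also turned without WT replicate 2 (0.57), without WT replicate 3 (0.06), without KO replicate 3 (0.06) and against WT replicate 1 alone (0.21).

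Partner genes outside the name rule gave no further call in the edgeR test. DESeq2 called PTPRN2, where 3.19% of all genes were called higher. Under limma-voom BSN, EXOC5 and PTPRN2 were called, where 11.8% of all genes were called higher. Of the other docking and fusion proteins, 22 of 28 were listed, 8 were compared and 0 passed. Of the exocyst, the complex that tethers vesicles at the plasma membrane, 6 of 10 were compared and 0 passed, the nearest being EXOC5 with 12, 57 and 34 counts in WT and 151, 124 and 173 in KO (2.30 ± 0.57 SE, edgeR adjusted p = 0.0530). Of granule cargo and processing genes, 3 of 15 were compared and 0 passed. The granule membrane protein PTPRN2 had 0, 0 and 5 counts in WT and 43, 35 and 37 in KO (4.53 ± 1.15 SE, adjusted p = 0.0557). CHGA, a defining granule cargo, had 1 count in all. Of the Rab regulators outside the rule 15 of 26 and of the other SNAREs 10 of 18 were compared, and 0 of either passed. At an unadjusted p under 0.05 these 5 lists held 1, 1, 2, 1 and 0 genes, of 8, 6, 3, 15 and 10 compared. Over all genes 14.9% were higher and 8.72% lower at that p. The lists are too small for their shares to be read against these. EXOC5 and PTPRN2 were named after their values were seen.

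The remaining 55 members had under 20 counts over the 6 libraries, 41 of them under 10, and no comparison was made. RAB13, RAB5B and VAMP8 were just inside the minimum with 20 counts each, and STX18, STX3 and RAB3D were among those just outside with 19. STX4, a plasma membrane syntaxin of glucose-stimulated insulin release, had 4 counts in WT replicate 2 and 1 in KO replicate 3. No CPLX gene is listed, and RAB37, SYT4, SYT5, SYT13 and UNC13A have no value here. At least 1 read was found for 32, 93 and 72 members in WT replicates 1, 2 and 3, the order of their depth, and for 61, 67 and 69 in KO.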

How the data were processed

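Read counts per gene from 3 WT and 3 KO islet libraries were used. The authors deposited whole-number counts without normalization, per the file headers. Tools listed in the submitters' processing notes, with no role stated, are HTSeq 0.9.1, HISAT2 2.0.4, cutadapt 1.9.3 and edgeR 3.16.5; the build is mm10. Per the labels' protocols, ribosomal RNA was depleted and libraries were strand-marking and read in pairs. The identifiers are human-style: 0 of them are in the mouse name table, 11747 of 13702 symbols match a mouse name without regard to case, and 97 of the 107 members do. A further 6 per-sample columns were not used.

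Genes with at least 20 counts over the 6 libraries entered the test (edgeR 4.0.16, R 4.3.3; TMM factors from the tested genes, quasi-likelihood F test on genotype, two-sided, Benjamini-Hochberg over 5641 genes, 0.05). CPM values use TMM-scaled sizes unless a share is named, and 1 count equals 18.0 CPM in WT replicate 1 and 2.71 CPM in WT replicate 2. A gene could reach the minimum through a single group, as STXBP5L, SYT11, RIMS2, VAMP2, STXBP6, NEFM, MYH4 and PTPRN2, among others, did through KO. STX6, STX7 and STX12, among others, did so through WT. Standard errors come from the F statistic. Intervals are exact at 95%; a count of 0 allows 3 counts; both cover counting error only, and PCR copies are not independent molecules. Alternatives used DESeq2 1.42.0, limma 3.58.1 (voom), other scalings, filters and left-out libraries. The scripts were tested on simulated data.

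Named were called members, the 3 members with most counts and the smallest p in each family, and a list of insulin granule genes. Members and lists were chosen with earlier results of these data known. Some genes that this rule covers are not reported here.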

Additional observations from a re-analysis of the deposited data

How the results depend on the processing

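Calls depended on the scaling, the filter and single libraries. The main fit called 174 genes and 2 members. It called 12 genes and 0 members with DESeq2 size factors, 25 and 0 with library totals, and 90 and 1 (STXBP5L) when genes over 1% of counts were left out of library sizes. With no low-count filter 439 genes passed and with a mean of at least 5 CPM 385 did, each with 2 members. DESeq2 called 295 genes and 3 members, limma-voom 677 and 10. Leaving out a WT library gave 188 to 998 genes and 1 to 14 members; leaving out a KO library gave 2 to 14 genes and 0 members (over all 6, 2 to 998 and 0 to 14). Against WT replicate 1 alone 586 genes and 8 members were called, and with the KO libraries summed edgeR called 0 and 0 (274 genes and 2 members at an unadjusted p under 0.05); with 1 KO sample, which is assumed to vary like WT, this says nothing of stability, and the log2 fold changes were 5.41 for STXBP5L and 5.28 for SYT11. At an adjusted p of 0.01, 9 genes and 0 members passed, and without regulators and synaptotagmin-like proteins 1 member did. The members' median log2 fold change was 0.63 under filterByExpr and 0.08 with the replicate block. The labels do not say whether the replicate numbers pair the samples. Correlations of deviations from the group means were 0.0025, 0.0085 and 0.0057 for same numbers and -0.012 to 0.0057 for other numbers. With KO libraries so close to each other, these values cannot tell whether samples were paired. With the replicate block 293 genes and 2 members were called.

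Signs turned for STX7 (block 0.062, limma-voom 0.086), SYT7 (block 0.011, limma-voom 0.41), and, with a library left out, SYT7 (-1.80 to 0.92), RAB6A (-0.17 to 2.48) and STX12 (-1.24 to 0.059), and, against WT replicate 1 alone, RAB1A (-0.23), RAB6A (-1.15), SYTL4 (-0.97) and VAMP2 (-0.43). STXBP5L and SYT11 kept a positive sign in all 17 alternatives. With every KO library above every WT library in both genes, that sign had little room to turn, so it does not measure stability. The cause of these changes was not tested. At the 35906 counts of WT replicate 1, 23 of the 52 compared members had no read there.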
